A study of Homo sapiens with 24 samples.

Results

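The genes described here encode kinases and a GTPase of the RAS, RAF and MAP kinase cascades, namely NRAS, ARAF, BRAF, MAP2K1, MAP2K2, MAPK3, MAPK8 and MAP3K8. Members were taken as every probe of the array platform whose gene symbol was one of these names. The rule found 8 of 47323 probes, for 6 of the 8 genes, of 20046 genes with a probe in all. NRAS and BRAF had no probe under the rule and were not analysed here. ARAF, MAP3K8, MAP2K1 and MAP2K2 had 1 probe each, and MAPK3 and MAPK8 had 2 probes each.

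KM-H2, L-428, SUP-HD1 and L-540, which are 4 established lines of Hodgkin lymphoma, were kept for 2 h with 10 µM AEZS-136 or as controls. AEZS-136 is a small molecule that inhibits PI3K and ERK, and the study's methods give the control as its vehicle. Each line with or without the compound made a group, and each of the 8 groups had 3 Illumina bead arrays, 24 in all. The study classed L-540 and SUP-HD1 as sensitive and KM-H2 and L-428 as resistant to cell death by the compound. Each line is a single culture line, so a class consists of 2 lines, and a difference between classes cannot be told apart from other differences between these lines. The labels do not tell whether replicate arrays were of separate cultures, and p-values therefore cover the spread between arrays alone, which may be technical.

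In the classical ERK cascade, RAS bound to GTP brings RAF kinases to the membrane, RAF phosphorylates the MEK kinases and MEK phosphorylates ERK. MAP3K8, also called TPL2 or COT, is another kinase upstream of MEK, held in a complex with the NF-kB precursor p105 and ABIN proteins in unstimulated cells. JNK, the product of MAPK8 and its relatives, belongs to a parallel stress cascade. Activity in these cascades is set mainly by phosphorylation, which transcript levels do not measure. In Hodgkin and Reed-Sternberg cells, the tumour cells of Hodgkin lymphoma, ERK and NF-kB signalling are known to be active.

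The median signal of an array was 96 to 127.9, and an array detected 16876 to 19524 probes. Of 6 Hodgkin cell markers, 4 or 5 were detected on all 3 arrays of every group, among them IRF4 and FSCN1. The probe for TNFRSF8, which encodes the defining marker CD30, was detected on all arrays of L-540 and on 1 array of L-428 only, and PAX5, a B cell factor, was detected on no array. Of the 5 B cell markers measured, PAX5 among them, 3 were detected on all 3 control arrays of KM-H2. The number was 2 in L-428 and 1 in each of L-540 and SUP-HD1. The KM-H2 controls had 4 of 7 T cell and 5 of 6 myeloid markers detected on all 3 arrays, with summed log2 levels of 42.88 and 46.07. The control groups of the other lines had 0 to 2 T cell and 3 myeloid markers, with summed log2 levels of 31.66 to 39.16 and 35.66 to 37.99. The part of these markers in the differences between lines was not tested.

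MAP3K8, MAP2K1 and MAPK3 were at their highest in L-428 among the control arrays, and MAP3K8 was the member that passed the test for a response. The sequences around their transcription start sites are printed for that reason. They come from RefSeq (GRCh38.p14) and run 5′ to 3′ from 250 bases before to 50 bases after a start site. A start site was found there for each of the 6 genes with a probe, and where a gene had several, the first along its strand is shown. Capitals mark matches, on either strand, to GGGCGG (an SP1 box), CCGGAAG (an ETS site), TGANTCA (an AP-1 site), TGACGTCA (a CRE), CACGTG (an E-box) or GGGANTTTC (an NF-kB site).
MAP3K8, chr10:30433771-30434070, plus strand: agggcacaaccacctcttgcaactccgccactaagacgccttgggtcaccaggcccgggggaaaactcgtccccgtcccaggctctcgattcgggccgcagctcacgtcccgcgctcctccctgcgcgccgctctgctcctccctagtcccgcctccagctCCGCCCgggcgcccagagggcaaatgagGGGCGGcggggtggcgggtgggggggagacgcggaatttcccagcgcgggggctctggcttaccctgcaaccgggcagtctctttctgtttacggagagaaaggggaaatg
MAP2K1, chr15:66386662-66386961, plus strand: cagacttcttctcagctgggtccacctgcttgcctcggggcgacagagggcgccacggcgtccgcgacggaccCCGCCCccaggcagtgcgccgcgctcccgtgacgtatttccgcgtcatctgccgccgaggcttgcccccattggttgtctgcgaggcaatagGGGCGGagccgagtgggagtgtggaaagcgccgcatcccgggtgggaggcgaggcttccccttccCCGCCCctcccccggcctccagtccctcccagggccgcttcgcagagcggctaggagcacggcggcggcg
MAPK3, chr16:30123171-30123470, minus strand: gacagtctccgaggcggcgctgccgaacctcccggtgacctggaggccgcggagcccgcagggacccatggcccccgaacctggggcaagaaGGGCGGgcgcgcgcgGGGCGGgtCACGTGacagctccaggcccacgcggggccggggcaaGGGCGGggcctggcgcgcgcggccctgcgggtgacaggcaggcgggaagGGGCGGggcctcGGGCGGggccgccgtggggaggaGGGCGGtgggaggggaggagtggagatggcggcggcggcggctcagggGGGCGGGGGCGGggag
The capitals in the MAP3K8 window are 2 SP1 boxes, and those in the MAP2K1 window are 3. The MAPK3 window held 8 SP1 boxes, 2 of them side by side at its downstream end, and 1 E-box. Among 35116 promoter windows of the same length, 45% held an SP1 box, 7.26% an E-box, 10.3% an ETS site, 7.71% an AP-1 site, 1.85% a CRE and 1.28% an NF-kB site. The windows shown held none of the last 4 letter strings, which says only that these letters are not in these windows. The second MAP3K8 window, not shown, held 3 SP1 boxes and 1 AP-1 site.

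Levels are given as log2 values after background correction and quantile normalization, and a level of one probe cannot be set against that of another. A probe was called in a comparison when limma's moderated test gave an adjusted p under 0.05, over all 24578 probes tested, together with an absolute log2 difference over 0.4, as the study's methods set them. Of the 8 member probes, 7 were tested in this way. The eighth, ILMN_1849941 for MAPK8, lay in a stretch of the signal table whose columns are out of register, and is described from the deposited normalized values.

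**Figure D1:**
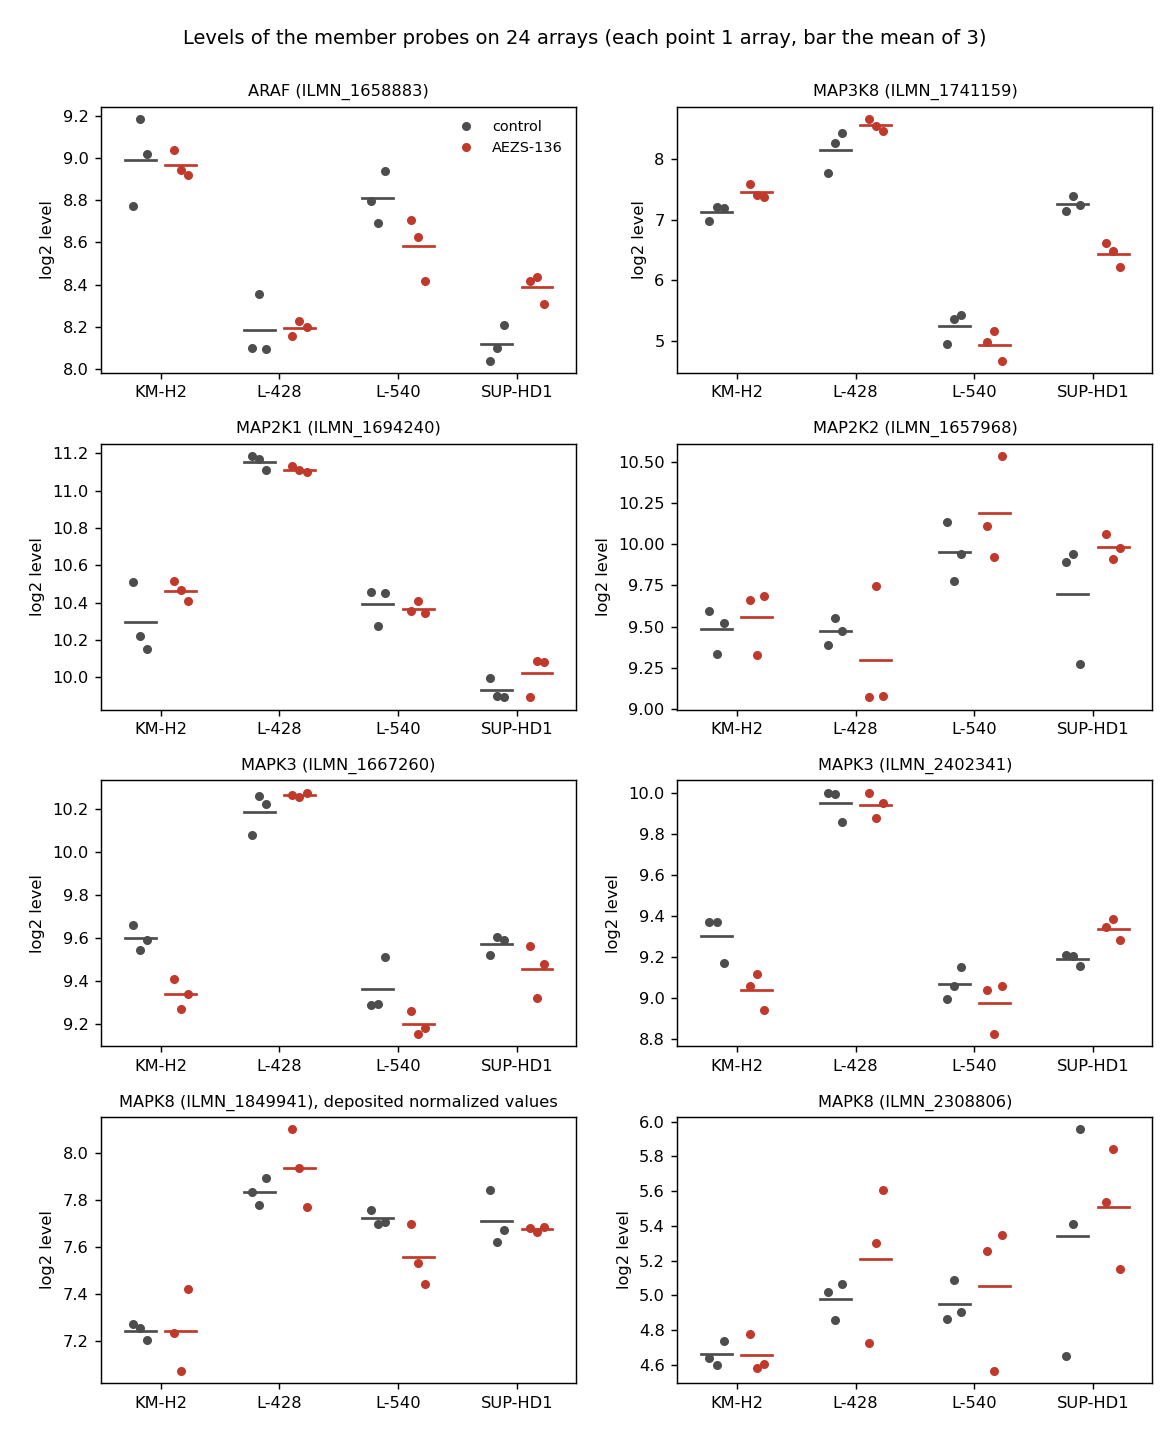
Log2 level (vertical axes) of the 8 member probes on each of the 24 arrays, by line (horizontal axes), with control arrays in grey, AEZS-136 arrays in red and bars at the means of 3 arrays. Vertical scales differ between panels and do not start at 0. MAP3K8 spans the widest range, from 4.67 in an L-540 array to 8.66 in an L-428 array, and its treated arrays lie above the controls in KM-H2 and L-428 and below them in SUP-HD1.

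ARAF, the RAF kinase among the members that had a probe, fell into a higher and a lower pair of lines before treatment. On the 3 control arrays its log2 level was 8.77, 9.18 and 9.02 in KM-H2 and 8.80, 8.69 and 8.94 in L-540. In L-428 it was 8.10, 8.35 and 8.09, and in SUP-HD1 it was 8.04, 8.10 and 8.21. Every control array of the first pair was above every one of the second. Within the pairs the lines did not differ beyond their spread. KM-H2 minus L-540 was 0.18 (95% interval -0.04 to 0.41, limma adjusted p = 0.159), and L-428 minus SUP-HD1 was 0.07 (-0.16 to 0.29, adjusted p = 0.664). Between the pairs the log2 differences ran from 0.63 for L-540 over L-428 to 0.88 for KM-H2 over SUP-HD1, the latter a fold of 1.83 (limma adjusted p = 3.79e-07). All 4 comparisons between the pairs were called.

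With AEZS-136, ARAF was at 8.42, 8.43 and 8.31 in SUP-HD1, above all 3 controls, and the log2 difference was 0.27 ± 0.106 (SE, limma adjusted p = 0.135). In L-540 the treated arrays were at 8.71, 8.63 and 8.42, and overlapped the controls with a log2 difference of -0.22 ± 0.106 (SE, limma adjusted p = 0.213). Neither change passed the test. In KM-H2 and L-428 the log2 differences were -0.03 and 0.01. The difference between the classes of lines was -0.03, with an interval of -0.25 to 0.19.

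MAP3K8, the kinase that phosphorylates MEK downstream of NF-kB-linked receptors, had the widest range among lines. Its control arrays read 7.77, 8.26 and 8.44 in L-428, 7.14, 7.39 and 7.23 in SUP-HD1, and 6.97, 7.21 and 7.19 in KM-H2. In L-540 they read 4.94, 5.35 and 5.42, and the probe was detected on 2 of the 3. L-428 was thus the highest line and L-540 the lowest, and neither overlapped another line. SUP-HD1 and KM-H2, next to each other in the order, did not differ beyond their spread, at -0.13 for KM-H2 minus SUP-HD1 (95% interval -0.47 to 0.21, limma adjusted p = 0.55). L-428 exceeded L-540 by 2.92 ± 0.162 on the log2 scale (SE, limma adjusted p = 1.92e-12), and exceeded SUP-HD1 by 0.90 and KM-H2 by 1.03. The L-540 arrays lay at or near the lowest detected level of an array, which ran from 4.90 to 5.18, so the size of the difference from L-540 is limited by background. With the deposited normalized values the L-428 and L-540 levels differed by 1.47, in place of 2.92, and the order of the lines from L-428 to L-540 was the same at both ends.

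The response of MAP3K8 to the compound differed between lines. In SUP-HD1 the treated arrays read 6.61, 6.49 and 6.21, and all 3 lay below the 3 controls. The mean fell from 7.25 ± 0.126 to 6.43 ± 0.204 (SD, n = 3), and MAP3K8 fell by 0.82 ± 0.162 on the log2 scale (SE, limma adjusted p = 0.00244), a fold of 1.76 with a 95% interval of 1.39 to 2.23. In L-428 the treated arrays read 8.66, 8.55 and 8.46, just above the highest control. The log2 difference there was 0.40 ± 0.162 (SE, limma adjusted p = 0.15), and it was 0.21 without control replicate 1, which read 7.77, and 0.54 without control replicate 3. In KM-H2 the treated arrays read 7.59, 7.41 and 7.38, above all 3 controls, with a log2 difference of 0.34 ± 0.162 (SE, limma adjusted p = 0.203). In L-540 the treated arrays read 4.97, 5.16 and 4.67 and overlapped the controls, the probe was detected on 1 of the 3, and the log2 difference was -0.31 (limma adjusted p = 0.279). Only the SUP-HD1 response passed the test. The estimated differences were of opposite sign between lines, and the mean over the 4 lines was -0.10, and was not called.

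The mean response of KM-H2 and L-428 exceeded that of L-540 and SUP-HD1 by 0.93 ± 0.162 on the log2 scale (SE, limma adjusted p = 0.00282, 95% interval 0.59 to 1.27). With SUP-HD1 alone as the sensitive line the difference was 1.19 (limma adjusted p = 0.00156). That comparison was chosen after the data had been seen, and SUP-HD1 is the line whose response was called, so the value gives no independent support.

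Both MAP3K8 calls depended on how the arrays were processed. With arrays scaled to a common median in place of quantile normalization, the SUP-HD1 difference was -0.70 and the class difference 0.86, and neither passed the test (limma adjusted p = 0.107 and 0.112). With the deposited normalized values the differences were smaller, at -0.43 and 0.50, and both were called. An export order of the arrays was inferred by correlation from the out-of-register stretch, where a detection column is filled from the signal of another array. Cutting this order in the middle gave 2 sets of 12 arrays, here called export sets, with every group in each. No label names a batch. Within the first and the second set the SUP-HD1 difference was -0.98 and -0.70 (limma adjusted p = 0.133 and 0.268), and the class difference was 1.0 and 0.81 (limma adjusted p = 0.211 and 0.37), with 1 or 2 arrays per group. Leaving out each of the 24 arrays in turn kept both calls.

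**Figure D2:**
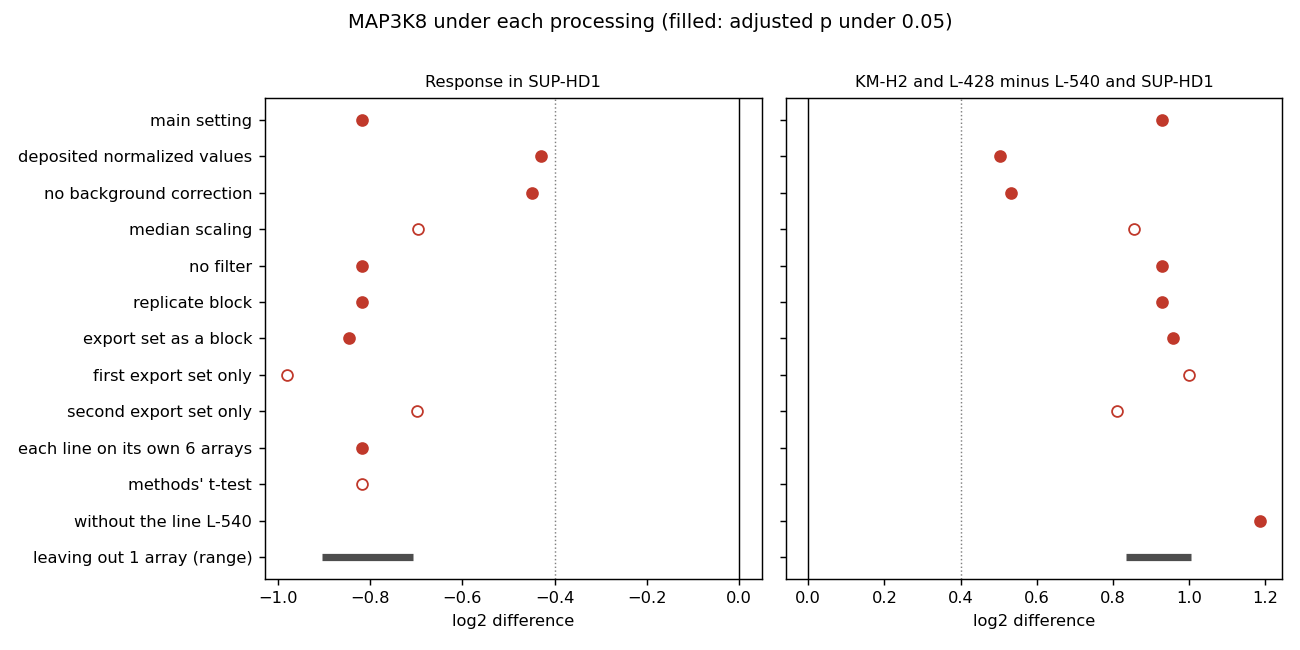
MAP3K8 log2 differences (horizontal axes) under the main and alternative settings (vertical axis), for AEZS-136 minus control in SUP-HD1 (left) and for the class difference of responses (right). Filled points have an adjusted p under 0.05, the grey bar spans the values from leaving out 1 array at a time, and the dotted line is the threshold of 0.4. Every value lies on the same side of 0 as the main one, between -0.98 and -0.43 on the left and between 0.50 and 1.19 on the right. The value of 1.19 is the comparison without L-540, which was chosen after the data had been seen.

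Of the MEK kinases, which phosphorylate ERK, MAP2K1 (MEK1) was highest in L-428. Its control arrays there read 11.19, 11.17 and 11.11, all above the other lines, and those of SUP-HD1, at 10.00, 9.90 and 9.89, were all below the other lines. KM-H2, at 10.51, 10.22 and 10.15, and L-540, at 10.46, 10.28 and 10.45, lay between and overlapped. L-428 exceeded SUP-HD1 by 1.23 ± 0.0887 on the log2 scale (SE, limma adjusted p = 1.65e-10), a fold of 2.34. The neighbours KM-H2 and L-540 did not differ beyond their spread (-0.10, 95% interval -0.29 to 0.09, limma adjusted p = 0.374). KM-H2 exceeded SUP-HD1 by 0.37 (limma adjusted p = 0.00136), which is under the threshold on size.

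With AEZS-136, MAP2K1 lay within the range of the controls or close to it in every line. The log2 differences were 0.17 in KM-H2, -0.04 in L-428, -0.03 in L-540 and 0.09 in SUP-HD1, with a standard error of 0.0887 and limma adjusted p-values from 0.25 to 0.912. Treated and control arrays overlapped in all 4 lines. The 95% intervals reached at most 0.35. The KM-H2 value moved with 1 array, and without control replicate 1, which read 10.51, the difference was 0.28 (limma adjusted p = 0.0388).

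MAP2K2, which encodes MEK2, varied more between replicate arrays than MAP2K1. The control arrays read 10.14, 9.78 and 9.94 in L-540, and 9.89, 9.94 and 9.27 in SUP-HD1, where the third stood apart from the others. They read 9.59, 9.33 and 9.52 in KM-H2 and 9.39, 9.55 and 9.47 in L-428. L-540 had the highest mean and exceeded KM-H2 by 0.47 and L-428 by 0.48, at limma adjusted p-values of 0.0438 and 0.0418, just past the threshold. These 2 calls were lost in 13 and 11 of 34 alternative settings, among them the leaving out of single arrays of KM-H2 or L-428. KM-H2 and L-428, next to each other, differed by 0.01 (95% interval -0.39 to 0.41).

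After treatment MAP2K2 read 10.11, 9.92 and 10.54 in L-540 and 10.06, 9.91 and 9.98 in SUP-HD1. The log2 differences from control were 0.24 and 0.28, and they were 0.07 in KM-H2 and -0.17 in L-428. Treated and control arrays overlapped in every line, and no change passed the test (limma adjusted p from 0.448 to 0.892). The 95% intervals, with a standard error of 0.191, reached 0.68 upward and -0.57 downward, wider than those of MAP2K1.

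MAPK3 encodes ERK1, the kinase at the end of the cascade and one of the targets of the compound. Both of its probes were highest in L-428. With probe ILMN_1667260 the control arrays read 10.08, 10.26 and 10.22 in L-428, 9.66, 9.55 and 9.59 in KM-H2, 9.52, 9.60 and 9.59 in SUP-HD1, and 9.29, 9.29 and 9.51 in L-540. Every L-428 array was above every array of the other lines, and KM-H2 and SUP-HD1 overlapped. L-428 exceeded L-540 by 0.82 ± 0.083 (SE, limma adjusted p = 3.12e-08), a fold of 1.77, and exceeded SUP-HD1 by 0.62 and KM-H2 by 0.59. KM-H2 and SUP-HD1 did not differ beyond their spread (0.03, 95% interval -0.14 to 0.20, limma adjusted p = 0.808). Probe ILMN_2402341 gave the same order of means, with log2 differences of 0.88, 0.76 and 0.65 for L-428 over L-540, SUP-HD1 and KM-H2. Across the 24 arrays the 2 probes correlated at r = 0.951, as a description.

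After AEZS-136, the KM-H2 arrays of ILMN_1667260 read 9.41, 9.27 and 9.34, all below the controls. Those of ILMN_2402341 read 9.06, 9.12 and 8.94 against controls of 9.37, 9.37 and 9.17, and again did not overlap. The log2 differences were -0.26 ± 0.083 and -0.27 ± 0.085 (SE, limma adjusted p = 0.0386 and 0.0389). Both probes passed the threshold on the p-value and not that on size. Leaving out 1 array raised the adjusted p to as much as 0.146 for ILMN_1667260, without AEZS-136 replicate 2 of KM-H2, and 0.163 for ILMN_2402341, without AEZS-136 replicate 3. The change is a fold of 1.20, with 95% intervals of 1.06 to 1.35 and 1.06 to 1.36.

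In SUP-HD1 the MAPK3 probes went in opposite directions, with log2 differences of -0.12 for ILMN_1667260 and 0.15 for ILMN_2402341, and neither passed the test (limma adjusted p = 0.484 and 0.356). In L-540 they were -0.17 and -0.09, and in L-428 they were 0.08 and -0.01. The mean over the 4 lines was -0.12 for ILMN_1667260 (limma adjusted p = 0.046) and -0.06 for ILMN_2402341, so a small decrease passed the p-value threshold with one probe and not with the other. The adjusted p of the first ran from 0.026 to 0.0895 when single arrays were left out, and was highest without AEZS-136 replicate 2 of SUP-HD1. The class difference was 0.05 and -0.16 with the 2 probes, and was not called with either.

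MAPK8, the stress-activated kinase JNK1, was detected on all 24 arrays with probe ILMN_1849941, whose deposited log2 values are used here. The control arrays read 7.27, 7.25 and 7.20 in KM-H2, 7.83, 7.78 and 7.89 in L-428, 7.76, 7.70 and 7.71 in L-540, and 7.84, 7.62 and 7.67 in SUP-HD1. KM-H2 was below every control array of the other lines. The differences were -0.59 ± 0.084 against L-428, -0.48 against L-540 and -0.47 against SUP-HD1 (SE 0.084 for each, limma adjusted p = 3.02e-07, 1.05e-05 and 1.41e-05 over 26474 probes), and all 3 were called. The share of those probes called was 30.2%, 31.9% and 32.5% in the same comparisons. The other 3 lines did not differ from each other beyond their spread, with differences from 0.01 to 0.12.

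With AEZS-136 the same probe read 7.70, 7.53 and 7.44 in L-540, where the arrays were at or below the lowest control, 7.70, and the difference was -0.16 (limma adjusted p = 0.244). The differences were 0.00 in KM-H2, 0.10 in L-428 and -0.04 in SUP-HD1, and none passed the test. The second MAPK8 probe, ILMN_2308806, was near background. It was detected on 0 of 6 arrays of KM-H2, 3 of 6 of L-428, 2 of 6 of L-540 and 5 of 6 of SUP-HD1. Its control level in KM-H2 minus SUP-HD1 was -0.68 (limma adjusted p = 0.033), which was called. The mean of the SUP-HD1 controls was at least 1.28-fold above KM-H2, measured from the lowest detected level on each KM-H2 array. Of those SUP-HD1 controls 2 of 3 were detected. The undetected one, replicate 1, read 4.65, within the KM-H2 controls at 4.60 to 4.74. That call was lost in 11 of 33 alternative settings. The first probe gave KM-H2 as the lowest line, while the second did not separate KM-H2 from L-428 or L-540 (limma adjusted p = 0.341 and 0.379). No response of the second probe passed the test, at limma adjusted p-values from 0.72 to 0.996.

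**Figure D3:**
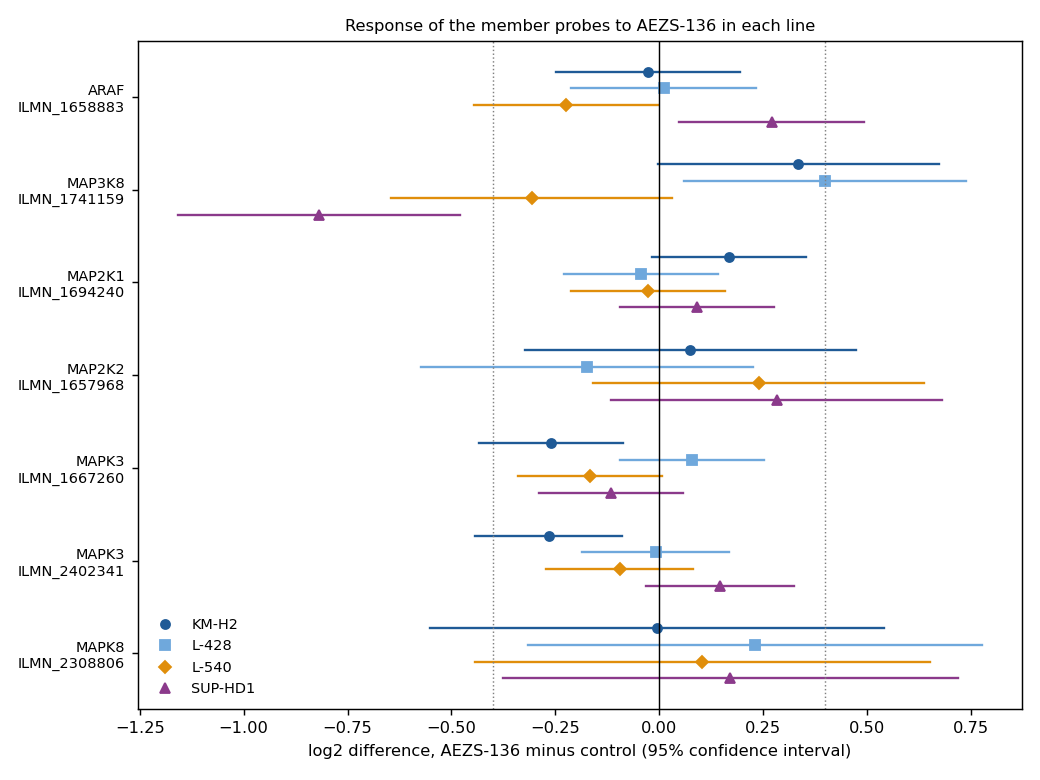
Log2 difference, AEZS-136 minus control (horizontal axis), for the 7 member probes tested (rows), with 1 symbol per line, bars for 95% confidence intervals from the model and dotted lines at the thresholds of -0.4 and 0.4. MAP3K8 in SUP-HD1, at -0.82, is the only response beyond both thresholds. The intervals of both MAPK3 probes in KM-H2 lie below 0.

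Counted over the 7 tested probes, AEZS-136 gave 1 call in SUP-HD1, where 6.54% of all tested probes were called. It gave 0 calls in KM-H2, L-428 and L-540, where 11.2%, 7.27% and 9.06% were called, and 0 in the mean of the lines, where 6.69% were. The class difference gave 1 call, against 2.1% of all probes. Treated and control arrays did not overlap for 3 of 7 probes in KM-H2, 1 in L-428, 1 in L-540 and 3 in SUP-HD1, against 31.4%, 24.9%, 25.9% and 26.5% of all probes. By the adjusted p alone, 2 of 7 passed in KM-H2 and 1 of 7 in the mean, against 14.8% and 25%. The median absolute log2 difference of the members was 0.17 in KM-H2, 0.08 in L-428, 0.17 in L-540 and 0.17 in SUP-HD1, beside 0.16, 0.15, 0.16 and 0.15 over all tested probes. With 7 probes, these counts are near the background in every line.

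Between control arrays, 6 of 7 member probes were called for L-428 against L-540, where 44.5% of all probes were called. For KM-H2 against L-428 the count was 5, against 46.2%, and for L-428 against SUP-HD1 it was 4, against 42.9%. It was 3 for L-540 against SUP-HD1, where 46.6% were called, 2 for KM-H2 against L-540, where 48.6% were, and 2 for KM-H2 against SUP-HD1, where 49.6% were. The 3 comparisons with L-428 share its arrays. The median difference of the members was 0.76 for L-428 over L-540, 0.62 over SUP-HD1 and 0.59 over KM-H2, beside medians over all probes of -0.02, 0.00 and 0.02. In the same order the median absolute differences were 0.76, 0.62 and 0.65, beside 0.38, 0.36 and 0.39 over all probes. The 7 probes include both MAPK3 probes.

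Across the 24 arrays, which share lines and treatments, MAP3K8 correlated with MAPK3 at r = 0.811 and 0.746 for its 2 probes and with MAP2K1 at 0.525, and with MAP2K2 at -0.773. These values describe mostly the differences between the 4 lines. The genes with the most similar pattern, by Pearson correlation over the 24 arrays among all named probes, were PRKCA (r = 0.976) and ZNF34 (0.972) for MAP3K8. They were LRRC26 (0.966) and ZNF827 (0.964) for MAPK3, BOP1 (0.967) and DPYSL2 (0.964) for MAP2K1, and SERPINA1 (0.936) and ALDH16A1 (0.934) for ARAF. For MAP2K2 they were CHP1 (0.818) and SDHA (0.817), and for MAPK8 they were PQBP1 (0.788) and RANGAP1 (0.762), from the probe near background.

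Of 57 other genes listed for the same cascades, 49 were measured. In KM-H2, 4 rose and 1 fell, in L-428 1 rose and 0 fell, in L-540 2 rose and 1 fell, and in SUP-HD1 0 rose and 1 fell. None was called in the mean of the lines. Of all tested probes, 11.2% were called in KM-H2, 7.27% in L-428, 9.06% in L-540, 6.54% in SUP-HD1 and 6.69% in the mean. The counts among the listed genes did not exceed these shares, and the KM-H2 count was near its own. Listed genes were counted by 1 probe each, with the highest mean, while the shares are over all tested probes. The median log2 difference over the 49 genes was 0.01 in KM-H2, 0.02 in L-428, 0.00 in L-540 and 0.03 in SUP-HD1, beside -0.01, -0.01, -0.01 and 0.01 over all probes.

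Of the kinases that MAP kinases activate, all 10 listed genes were measured, and 2 rose in KM-H2, 1 in L-428 and 1 in L-540, against 11.2%, 7.27% and 9.06% of all probes called in either direction. RPS6KA5, which encodes the nuclear kinase MSK1, read 7.47, 7.38 and 7.46 on the KM-H2 controls and 8.08, 8.08 and 7.93 after treatment, without overlap. It rose by 0.59 in KM-H2 and by 0.62 in L-540 (limma adjusted p = 0.00606 and 0.00559), was at 0.39 in L-428 (adjusted p = 0.0961) and at -0.22 in SUP-HD1 (adjusted p = 0.41). Without L-540 control replicate 3, which read 8.87, the L-540 value was 0.41, and the KM-H2 and L-540 calls were lost in 2 and 3 of 35 alternative settings. MAPKAPK5, a kinase bound and activated by atypical MAP kinases, rose by 0.42 in KM-H2 and 0.45 in L-428 (limma adjusted p = 0.038 and 0.0423), and its second probe gave 0.45 and 0.46. These MAPKAPK5 calls, from the first probe, were lost in 11 and 16 of 35 alternative settings.

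For the other lists, the shares of all tested probes called were 11.2% in KM-H2, 7.27% in L-428, 9.06% in L-540 and 6.54% in SUP-HD1. Within single lines, 1 of 10 RAS regulators was called, GRB2, the adaptor between receptors and SOS, which rose by 0.60 in KM-H2. Among 7 further MAP3K genes, MAP3K3 rose by 0.76 in KM-H2 and MAP3K4 fell by 0.43 in L-540. Of both partners of MAP3K8, TNIP2, which encodes ABIN2, fell by 0.59 in KM-H2 and was not called in SUP-HD1, the line in which MAP3K8 fell. Of 7 further MAPK genes, MAPK7 (ERK5) rose by 0.93 in L-540 and MAPK6 (ERK3) fell by 0.68 in SUP-HD1. No gene was called among the 4 RAS GTPases, the 6 RAF kinases and scaffolds and the 3 further MAP2K genes in any line. GRB2, MAP3K3, MAP3K4, TNIP2, MAPK7 and MAPK6 were named after their values had been seen, and their calls under the alternative settings are not given here.

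**Figure D4:**
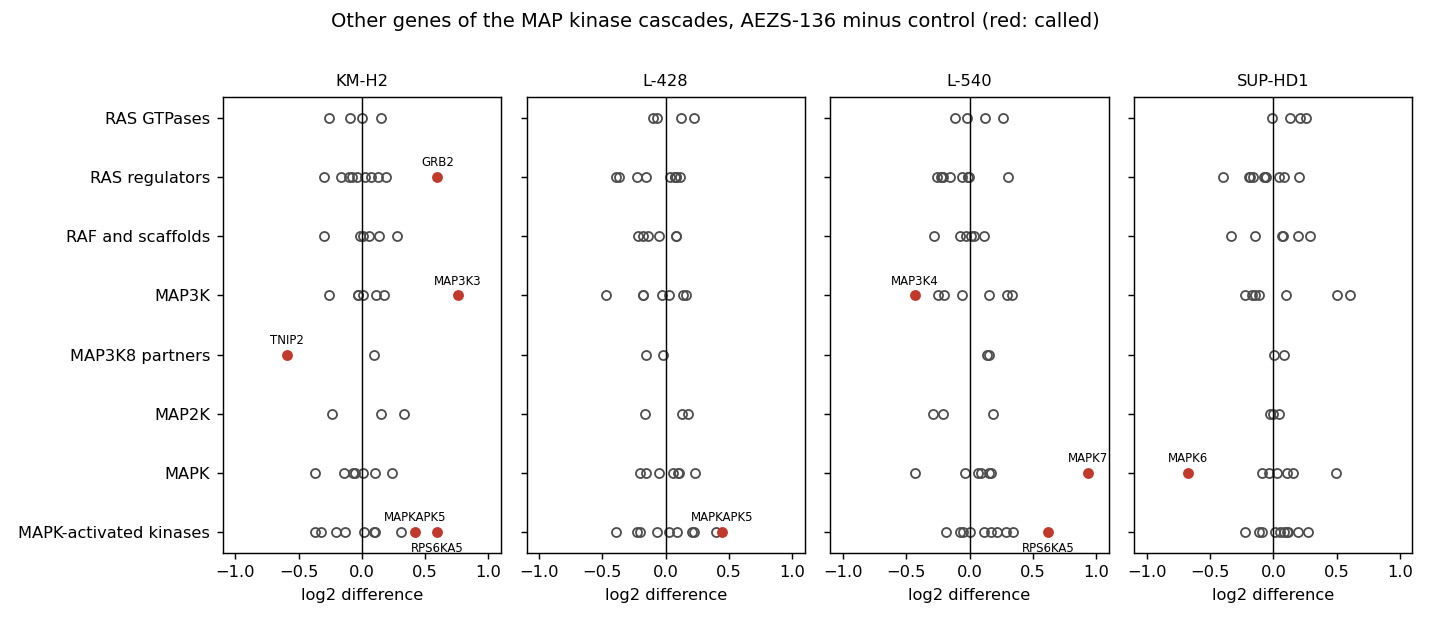
Log2 difference, AEZS-136 minus control (horizontal axes), of the 49 other measured genes of the cascades, grouped by list (rows), with 1 panel per line and 1 point per gene. Filled red points are called and named, and the others did not pass the test. The called genes differ from line to line, and RPS6KA5 and MAPKAPK5 are each called in 2 panels.

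In the class difference, PTPN11 and MKNK2 were called among the 49 genes, against 2.1% of all probes. PTPN11, which encodes the phosphatase SHP2 upstream of RAS, had treated arrays of 9.50, 9.54 and 9.51 in SUP-HD1 against controls of 9.93, 9.86 and 9.95. Its log2 difference was -0.40 in SUP-HD1 (limma adjusted p = 0.0176, just under the threshold on size), -0.21 in L-540, 0.13 in KM-H2 and 0.08 in L-428, and the class difference was 0.41 ± 0.103 (SE, limma adjusted p = 0.0387). MKNK2, an ERK- and p38-activated kinase that phosphorylates the cap-binding factor eIF4E, was at -0.37 in KM-H2 and -0.39 in L-428 (limma adjusted p = 0.00495 and 0.00521, under the threshold on size), and at 0.17 in L-540 and -0.12 in SUP-HD1. The class difference was -0.41 ± 0.0871 (SE, limma adjusted p = 0.0127), and -0.41 with its second probe (limma adjusted p = 0.0229), which had the opposite sign from the first in both sensitive lines. The PTPN11 call was lost in 22 and the MKNK2 call in 13 of 34 alternative settings.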

How the data were processed

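RNA of 4 Hodgkin lymphoma lines was measured on 24 bead arrays, 3 per group. The authors summarised bead intensity in BeadStudio (version not given in the sources used here) and deposited it on a linear scale without normalization, each value beside a detection value that equals 1 minus the detection p-value. The authors also deposited log2 values of the same probes after robust spline normalization in the lumi package. Robust spline normalization and the quantile step both force the arrays towards a common distribution, so a shift shared by most genes would not be seen. In a run of 3270 consecutive probes the signal columns hold other quantities, and 44053 probes were used. Of all probes, 30113 had 1 symbol, 8 several and 17202 none in the platform annotation. A RefSeq table (GRCh38.p14) held the Entrez IDs of 30074 probes and changed 0 symbols.

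Signals were corrected and normalized with neqc in limma 3.58.1 (R 4.3.3, offset 16), with background parameters from the detection p-values. A probe needed a detection p under 0.05 on 3 or more arrays to be tested, and 24578 were. One linear model with a coefficient per group covered the 24 arrays (lmFit, eBayes), with Benjamini-Hochberg adjustment over all tested probes. The class difference is the mean response of KM-H2 and L-428 minus that of L-540 and SUP-HD1. For a gene with several probes, the kept probe with the highest mean stood for it where genes were counted. For a probe undetected throughout a group, the fold is a lower bound, taken from each array's lowest detected level. Precision is limited by the number of arrays. The analysis was tested on simulated data. Of 100 probes given a log2 change in KM-H2, 32 were called in the right direction at 0.5 and 79 at 1. False calls numbered 6 at each size. Changes of such sizes can thus be missed.

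Member genes, pathway lists and tests were chosen with earlier results of these data known. Named pathway genes were those called in the mean of the lines, in the class difference, or in 1 direction in at least 2 lines. For each member the 2 genes with the highest correlation were named. Alternatives were the deposited log2 values, no background correction, median scaling, other filters, blocks for replicate number and export set, each export set and each line alone, the methods' t-test and leaving out each array. For the class difference, a comparison without L-540, chosen after the data had been seen, was counted among them. Figures were drawn with matplotlib 3.10.9.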

Additional observations from a re-analysis of the deposited data

Results flagged for a closer look

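Among the member probes, the response of MAP3K8 differed between the resistant and the sensitive lines, by 0.93 on the log2 scale (limma adjusted p = 0.00282). Treated arrays were above the controls in both resistant lines and below them in SUP-HD1, while in L-540 the probe was near background. Of all tested probes, 31.4% in KM-H2, 24.9% in L-428 and 26.5% in SUP-HD1 likewise did not overlap. Neither rise in a resistant line was called (limma adjusted p = 0.203 in KM-H2 and 0.15 in L-428). The class call was lost in 3 of 33 alternative settings, namely median scaling and each export set alone. Of the 33, 24 left out a single array and all kept the call. The settings counted for a class call also include the comparison without L-540, which was chosen after the data had been seen. Among the other genes of the cascades, MKNK2 differed in the opposite sense, by -0.41 with each of its 2 probes, and PTPN11 differed by 0.41 (limma adjusted p = 0.0127, 0.0229 and 0.0387). The MKNK2 call, from its first probe, was lost in 13 of 34 alternative settings and the PTPN11 call in 22. Each class holds 2 lines, so class and line cannot be told apart.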

How the results depend on the processing

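Over the 7 tested member probes, no called value changed its direction in any alternative, and changes of sign occurred only among values that were not called. The MAPK8 probe ILMN_1849941 was run with the deposited values alone. The SUP-HD1 response of MAP3K8 ran from -0.98 to -0.43 and its class difference from 0.50 to 1.19. Member calls went to 0 in SUP-HD1 and in the class difference with median scaling, in each export set alone, and when probes had to be detected on all 24 arrays, which removed MAP3K8. The methods' t-test, with Benjamini-Hochberg adjustment, also gave 0 in SUP-HD1 (adjusted p = 0.0818 for MAP3K8). Between the controls of KM-H2 and L-540 the member calls went from 2 to 1 with median scaling, the filter on all arrays, no filter, the replicate block, each export set and the t-test. For KM-H2 against SUP-HD1 they went from 2 to 1 with the deposited values, no background correction, both filters, each export set and the t-test. Leaving out single arrays gave 1 to 2 calls in both comparisons. Deviations of same-numbered arrays correlated weakly, at -0.178 to 0.0959. Whether the numbers pair the samples cannot be told from these values, and the labels do not say. With the replicate block MAP3K8 kept both calls, at -0.82 and 0.93, 6 of 12 pairs correlated best with their own number, and the only member calls lost were those of MAP2K2.

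Over all probes, 2758, 1788, 2227 and 1608 were called in KM-H2, then L-428, then L-540, then SUP-HD1, 1645 in the mean and 515 in the class difference. In the same order, the deposited values gave 1173, 721, 925, 664, 521 and 211, and no background correction gave 1275, 773, 985, 720, 563 and 238. Median scaling gave 658 in L-428, 1123 in L-540, 562 in SUP-HD1 and 81 in the class difference. It also moved the share of calls that were higher from 57.7% to 88.5% in KM-H2, from 55.7% to 46% in L-428, where the majority turned, from 61% to 82.6% in L-540, from 44.9% to 71.7% in SUP-HD1 and from 63% to 79.7% in the mean, and the deposited values moved it from 55.7% to 66% in L-428. The filter on all arrays gave 1450 in L-540, 1043 in the mean and 325 in the class difference. Between controls it gave 6725, 7023 and 7130 for KM-H2 against L-428, then L-540, then SUP-HD1, 6737 and 6495 for L-428 against L-540 and SUP-HD1, and 7066 for L-540 against SUP-HD1. The first export set gave 137 in L-428, 149 in SUP-HD1 and 2 in the class difference, and the second gave 130, 402, 314 and 114 in the lines and 0 in the class difference. A fit to each line alone gave 949 in L-428, 1279 in L-540 and 963 in SUP-HD1, the t-test gave 1143, 303, 526 and 468 in the lines, and the class difference without L-540 gave 923. Smaller sets of arrays test fewer samples, and the cause of the other shifts was not tested. MAP3K8 in L-540 and the second MAPK8 probe were limited by background.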
